A study of Mus musculus with 12 samples.

Results

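A set of 9 enzymes and partner proteins that adjust the circadian clock after its genes have been transcribed was followed in the olfactory epithelium of the mouse: the kinases Csnk1d, Csnk1e and Gsk3b, the F-box proteins Btrc, Fbxw11 and Fbxl21, the deubiquitinase Usp2, the deacetylase Sirt1 and the clock partner Timeless. The genes were taken by symbol from a list of 9, and 9 of these 9 were measured, among 19937 genes with 1 symbol on the array. Each was read by 1 entry of the probe annotation, called a probe here. How many array sequences such an entry sums was not examined. Tissue came from male C57BL/6 mice, with no mutation or drug named in the labels, which had been kept for at least 14 days in 12 h of light and 12 h of dark and were then held in constant darkness. Samples were taken every 4 h from circadian time (CT) 12 to CT56, and each time point was 1 pool of total RNA from 4 mice on 1 array, 12 pools and 48 mice in all. CT0 to CT12 is the subjective day, when mice mostly rest, and CT12 to CT24 the subjective night. The pools make 6 phases of the day with 1 pool in the first cycle (CT12 to CT32) and 1 in the second (CT36 to CT56). The spread described here is therefore that between pools and arrays, not between single mice. The labels state no age for the animals.

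The clock of mammalian cells is a loop in which CLOCK and BMAL1 (the product of Arntl) switch on the Per and Cry genes, whose proteins then hold CLOCK and BMAL1 back. The pace of that loop depends on how fast PER and CRY proteins are marked and destroyed. Casein kinases 1 delta and epsilon phosphorylate PER, the F-box proteins beta-TrCP1 (Btrc) and beta-TrCP2 (Fbxw11) pass phosphorylated PER to the proteasome, FBXL21 acts on CRY, and USP2 removes ubiquitin from clock proteins. Much of this control acts on proteins, which an array of RNA does not measure.

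Labelled tissue and markers were compared first. Omp, the marker of mature olfactory sensory neurons, read between 12.70 and 13.08 log2 units in the 12 pools, and Cyp2g1, a marker of sustentacular supporting cells, between 13.64 and 13.79. Omp lay above at least 99.5% and Cyp2g1 above at least 99.9% of the probes on every array. The mean of 4 gland markers was less steady, from 9.96 at CT12 to 12.6 at CT44. Bpifb9b read between 5.93 and 13.12 and Obp1a between 8.62 and 13.49. Sec14l3, between 12.64 and 12.94, and Aqp5, between 10.91 and 11.38, varied less. Of 4 brain markers, Gfap read between 6.37 and 7.14 and Slc17a7 between 6.67 and 7.45. The myelin gene Mbp read between 8.21 and 8.42, and Snap25, which neurons express widely, between 10.96 and 11.58. Values are log2 intensities, in which a step of 1 is a doubling. The CT56 array resembled the rest least (mean Pearson r over all probes 0.975), followed by CT32 (0.981). In bulk tissue, fewer cells of a type and less RNA per cell cannot be told apart.

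No member passed the 24 h test, and Usp2 and Btrc had the widest fitted swings. With a cosine of 24 h fitted to all genes, 0 of the 9 passed an adjusted p of 0.05 in limma, where 5 of 19937 genes, or 0.0251%, did. At an unadjusted p under 0.05 there were 2 of 9, Usp2 and Btrc, against 3.54% of all genes. The fitted amplitude, the log2 distance from mean to peak, had a median of 0.06 over the members and of 0.06 over all genes. The adjusted p of the members lay between 0.857 and 0.996 in limma. Of 10 clock genes set beside the members, 3 passed: Dbp, Nr1d1 and Arntl, with amplitudes of 0.51 ± 0.05, 0.42 ± 0.04 and 0.35 ± 0.04 (SE, 12 pools). Per1, Per2, Per3, Cry1, Cry2, Clock and Nr1d2 did not pass.

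**Figure D1:**
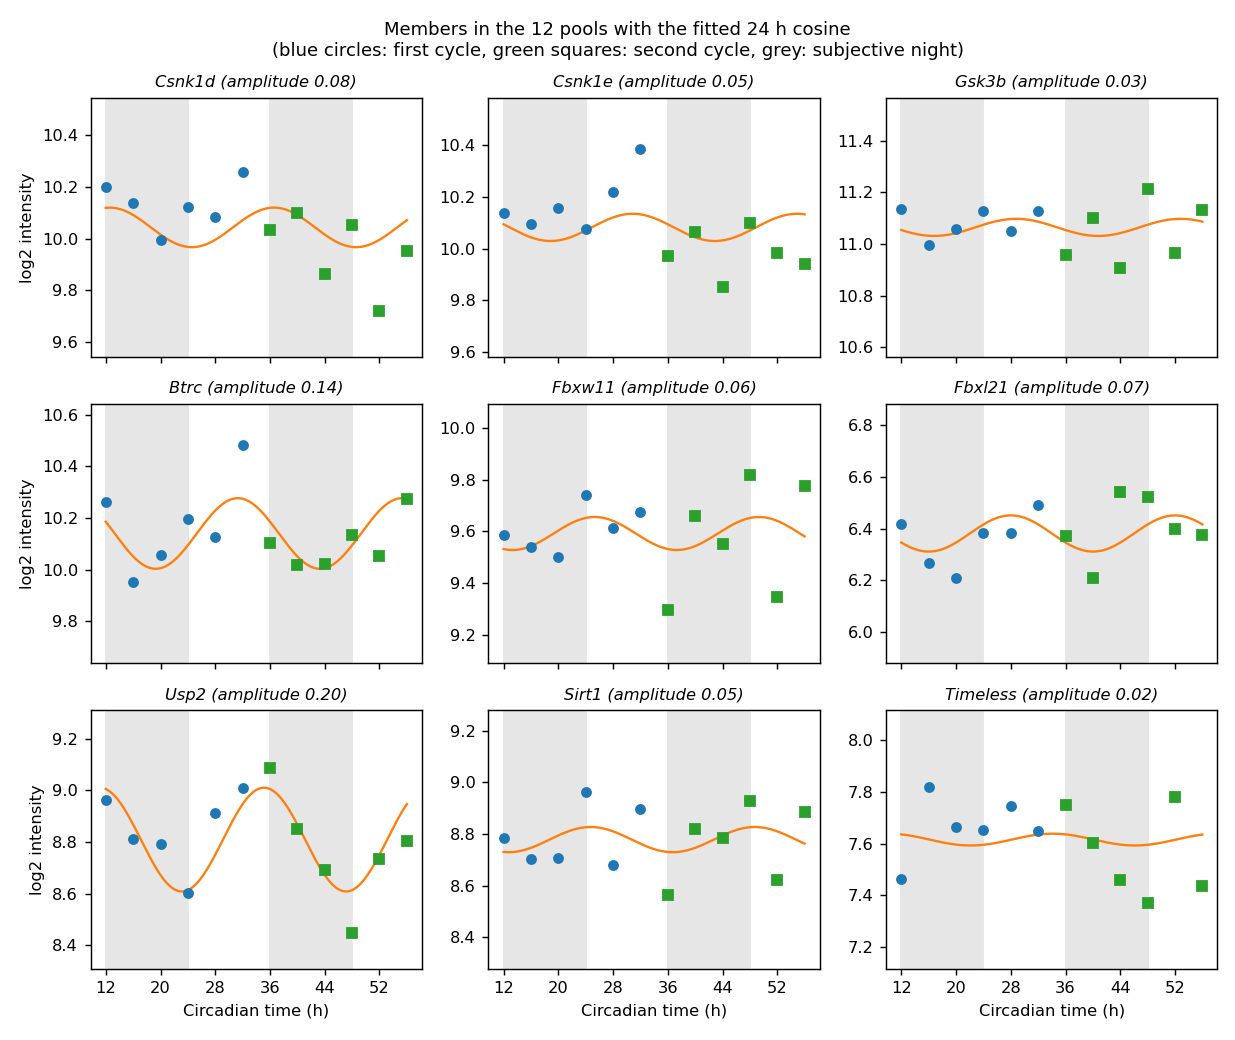
log2 intensity (y axis, the same height in every panel) against circadian time in h (x axis) for the 9 genes, with 1 point per pool, circles for the first cycle, squares for the second, and the fitted 24 h cosine as a line. Usp2 is lowest at CT24 and at CT48, and Btrc is highest at CT32 and at CT56, each within its cycle, while Sirt1, Fbxw11 and Gsk3b jump between neighbouring time points.

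The kinases showed no common 24 h course. Csnk1d (probe 10394040) read between 9.72 at CT52 and 10.26 at CT32 (median 10.07), with an amplitude of 0.08 ± 0.06 (SE, 12 pools). Csnk1e (probe 10430519) read between 9.85 at CT44 and 10.39 at CT32 (median 10.09), with an amplitude of 0.05 ± 0.06. Gsk3b (probe 10435676), a kinase of several clock proteins, read between 10.91 at CT44 and 11.21 at CT48 (median 11.08), with an amplitude of 0.03 ± 0.05. None of the 3 amplitudes was far above its SE.

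Btrc (probe 10463486) encodes beta-TrCP1, the F-box protein that recognises phosphorylated PER. It read 10.48 at CT32 and 10.28 at CT56, the highest pool of each cycle, and 9.95 at CT16 and 10.02 at CT40, the lowest of each cycle. CT12 followed at 10.26, while CT36, at the same phase, read 10.11. In the deposited values both pools at CT8 of the day thus lay above the other 10, CT56 only just, and both at CT16 below them. After quantile normalization CT56 read 10.207, below CT12 at 10.254 and CT36 at 10.213. CT16 and CT40 stayed lowest, at 9.98 and 10.02. The amplitude fitted to the deposited values was 0.14 ± 0.05 (SE, 12 pools). The cosine peaked at CT 7.30, where it stood 1.21 times over its lowest point (limma, adjusted p = 0.996). The amplitude was 0.09 without the pool at CT32 and 0.07 without CT32 and CT56, the latter choice made after the data were seen. Of the variance of Btrc, a share of 0.824 lay between phases. That share was 0.820 for Usp2, 0.795 for Sirt1, 0.665 for Fbxw11 and 0.570 for Gsk3b, and between 0.127 and 0.434 for the other 4 members, with no test. With 6 phases among 12 pools, a sizeable share arises without any rhythm, and the share over all genes was not computed.

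The genes most like Btrc were Leprot, Dnah11 and Cfap70 (Pearson r = 0.96, 0.95 and 0.94), the last pair being genes of motile cilia, which in the nose mark respiratory cells. The mean of 5 motile cilia markers, Foxj1, Dnah5, Dnah9, Dnaic1 and Tekt1, read 8.95 at CT32 and 8.99 at CT56, the highest 2 of the 12 pools, and 8.47 at CT16, the lowest. Other pools differed: at CT12 the cilia mean read 8.52, its lowest after CT16, while Btrc at 10.26 was below only CT32 and CT56. At CT28 the cilia mean read 8.91, its highest after those 2 pools, and Btrc 10.13. Over all 12 pools the cilia mean had a 24 h amplitude of 0.14 and a peak at CT 3.97. Its part in the Btrc values was not tested.

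The beta-TrCP paralogue Fbxw11 (probe 10375103) had the highest pool of each cycle at CT24 and CT48, with 9.74 and 9.82, followed by CT32 at 9.67 and CT56 at 9.77. Its lowest pools were CT36 and CT52, with 9.30 and 9.34. Its amplitude was 0.06 ± 0.06 (SE, 12 pools) with a fitted peak at CT 1.32, and the pools at CT12 and CT36 differed by 0.29. The pair of paralogues correlated with r = 0.40 over the pools. Probes for such close relatives can bind both transcripts, which was not tested here.

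Fbxl21 (probe 10405576) encodes an F-box protein of CRY, known for expression in the brain clock. It was dim, between 6.21 and 6.54 with a median of 6.38, which placed its probe above 18.4% to 24.2% of all probes, depending on the array. The deposited table holds no detection call. Its amplitude was 0.07 ± 0.05 (SE, 12 pools). The pool at CT20 was its lowest and the one at CT44, at the same phase, its highest, so the cycles did not repeat each other.

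Usp2 (probe 10584634) encodes a deubiquitinase that acts on clock proteins such as PER1 and CRY1 and whose transcript cycles in many tissues. Its pools read 8.60 and 8.45 at CT24 and CT48, the lowest level of either cycle. They read 8.91 and 8.74 at CT28 and CT52, and 9.01 and 8.80 at CT32 and CT56. At dusk, CT12 and CT36, the values were 8.96 and 9.09. The levels then went through 8.81 and 8.85 at CT16 and CT40 and 8.79 and 8.69 at CT20 and CT44. Both pools at the start of the subjective day lay below the other 10 pools, which did not reach under 8.69. The fitted amplitude was 0.20 ± 0.05 (SE, 12 pools), the peak was at CT 11.1, and peak over trough was 1.32-fold (limma, adjusted p = 0.857 over all genes). Its p ranked 66 among 19937 genes. Fitted in each cycle alone, the amplitude was 0.17 with a peak at CT 9.77 in the first and 0.25 with a peak at CT 12.0 in the second (test of the difference in limma, adjusted p = 0.9999).

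The Usp2 pattern was set beside that of the clock genes. Per3, a relative of the Per repressors, swung by 0.24 ± 0.05 around its mean and peaked at CT 9.31. Per2 swung by 0.12 ± 0.04 and peaked at CT 10.9, so the fitted Usp2 peak fell close to that of Per2. Neither passed over all genes (limma, adjusted p = 0.518 and 0.996). Over the 12 pools Usp2 had a Pearson correlation of 0.77 with Per2 and of -0.82 with Arntl, the highest and the lowest among the 10 clock genes. It was 0.68 with Per3, -0.63 with Clock, 0.55 with Dbp, 0.42 with Per1 and 0.36 with Nr1d2. With Cry2 it was 0.25, with Nr1d1 0.20 and with Cry1 -0.22. These values describe the same 12 arrays and carry no test. The genes most like Usp2 over the pools, among 17158 others, were Zswim9, Chchd6 and Wdr27 (Pearson r = 0.91 for each).

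**Figure D2:**
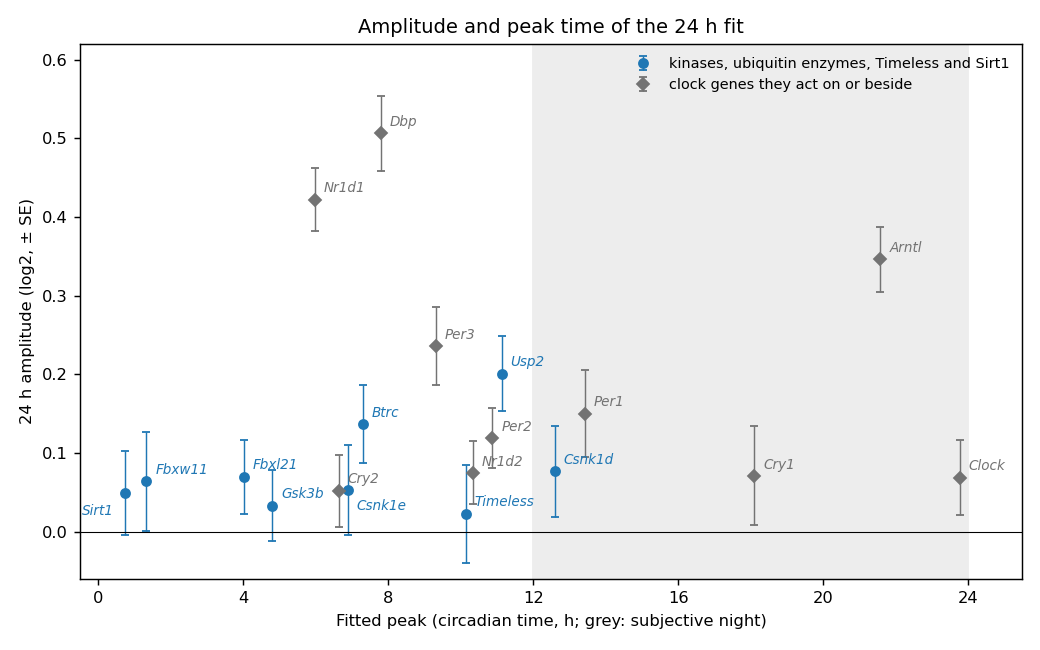
Fitted 24 h amplitude in log2 units with its SE (y axis) against the fitted peak in circadian time (x axis, h) for the 9 members (circles) and 10 clock genes (diamonds). Usp2 at 0.20 and Btrc at 0.14 stand above the other 7 members, which lie between 0.02 and 0.08, and below Dbp, Nr1d1 and Arntl.

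Sirt1 (probe 10369738) encodes an NAD-dependent deacetylase that acts on BMAL1 and PER2. It read between 8.57 at CT36 and 8.96 at CT24 (median 8.78), and its amplitude was 0.05 ± 0.05 (SE, 12 pools). Timeless (probe 10367179) encodes a replication fork protein that also binds clock proteins. It read between 7.37 at CT48 and 7.82 at CT16 (median 7.65), with an amplitude of 0.02 ± 0.06, the smallest of the 9. Its pools at CT12 and CT36 read 7.46 and 7.75, a gap of 0.29 within 1 phase against a whole range of 0.45.

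Promoter windows of RefSeq (build GRCm38.p6, 250 bases before to 50 after a start) show whether the letters of clock-controlled elements lie close to the start of these genes. The table held 10 windows for 7 of the 9 genes, all but Csnk1d and Btrc. Searched on both strands were the E-box CACGTG, bound by CLOCK and BMAL1, its variant CACGTT, the D-box as TTATGTAA and TTACGTAA, bound by DBP and its relatives, the core site AGGTCA of ROR and REV-ERB, and the cAMP response element TGACGTCA. None of the 6 contains another. Of all 32851 windows, 7.15% held CACGTG, 4.68% CACGTT, 0.938% TTATGTAA, 0.119% TTACGTAA, 16.3% AGGTCA and 1.79% TGACGTCA. Among the members, CACGTG was in the Sirt1 window and TTATGTAA in the Timeless window, and the other 8 windows held none of the 6. Shown are the 2 windows with a match and, for contrast, that of Usp2, the member with the widest swing, all on the strand of the gene, with matches in capitals:

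Usp2, chr9:44084670-44084969, plus strand: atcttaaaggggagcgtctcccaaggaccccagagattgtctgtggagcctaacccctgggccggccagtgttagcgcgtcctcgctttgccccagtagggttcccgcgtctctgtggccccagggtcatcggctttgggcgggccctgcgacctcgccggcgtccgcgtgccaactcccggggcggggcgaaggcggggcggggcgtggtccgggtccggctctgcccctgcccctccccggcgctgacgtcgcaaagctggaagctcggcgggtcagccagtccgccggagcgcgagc

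Sirt1, chr10:63338986-63339285, minus strand: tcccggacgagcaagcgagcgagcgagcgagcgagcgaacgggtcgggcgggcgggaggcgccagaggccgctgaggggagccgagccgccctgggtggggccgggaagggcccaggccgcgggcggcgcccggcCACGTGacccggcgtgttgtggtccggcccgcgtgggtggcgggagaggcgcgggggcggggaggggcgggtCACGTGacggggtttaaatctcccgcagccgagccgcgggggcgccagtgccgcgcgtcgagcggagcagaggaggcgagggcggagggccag

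Timeless, chr10:128237816-128238115, plus strand: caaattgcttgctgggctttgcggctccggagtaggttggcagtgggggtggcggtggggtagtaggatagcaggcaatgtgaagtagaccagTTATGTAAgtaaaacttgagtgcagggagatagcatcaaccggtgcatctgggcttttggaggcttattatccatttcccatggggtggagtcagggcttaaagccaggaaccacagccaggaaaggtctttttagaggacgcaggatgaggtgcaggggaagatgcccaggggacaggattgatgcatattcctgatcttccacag

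The 2 E-boxes of Sirt1 begin at -115 and -43 from the start, and the D-box of Timeless at -157. Both genes had small amplitudes, 0.05 and 0.02, while Usp2, without any of the 6 in this window, had 0.20. The Usp2 window belongs to a start 17.9 kb inside the gene as RefSeq bounds it, and the Timeless window to one 6.00 kb inside, so other starts of these genes are not covered. The Usp2 and Sirt1 windows were rich in G and C, at 71.7% and 79.0%, against a median of 52.7% over all windows, and Timeless had 52.3%. A match is a description of letters and not of a bound site.

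The second cycle was then compared with the first, phase by phase, to see how levels held in lasting darkness. Both casein kinases read lower in the second cycle, but neither passed. In limma 0 of 9 members passed an adjusted p of 0.05, as did 0 of 19937 genes, or 0%, while 2625 had an unadjusted p under 0.05. The second cycle was lower at an unadjusted p under 0.05 for 2 of 9 members, against 8.94% of genes, and higher for 0 of 9, against 4.22%. In all, 8 of 9 members read lower, beside 61.7% of all genes, with a median difference of -0.08 for the members and -0.03 for all genes. The labels name no array batch, and if arrays were run cycle by cycle, that and time in darkness cannot be told apart.

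Csnk1d averaged 10.13 ± 0.09 (SD, n = 6 pools) in the first cycle and 9.95 ± 0.14 in the second. The difference was -0.18 ± 0.06 (SE), with a 95% interval from -0.31 to -0.05 (limma, adjusted p = 0.304). It was lower in 6 of 6 pairs of pools, the smallest step being -0.04 at CT40 and the largest -0.36 at CT52, and it was the only member to be so, as 6.10% of all genes were. The cycles still overlapped, since CT20 read 9.99 and CT40 10.10. Csnk1e averaged 10.18 ± 0.11 in the first cycle and 9.99 ± 0.09 in the second, a difference of -0.19 ± 0.07 (SE) with an interval from -0.34 to -0.05 (limma, adjusted p = 0.306). It was lower in 5 of 6 pairs, with CT48 at 10.10 above CT24 at 10.08 as the exception. The step at CT56, -0.44, was its largest, and without that pair the difference was -0.14. Across all 12 pools the 2 kinases had a Pearson correlation of 0.72, or 0.70 after quantile normalization. Their sequences are close, and binding of both transcripts by the same array sequences was not tested.

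**Figure D3:**
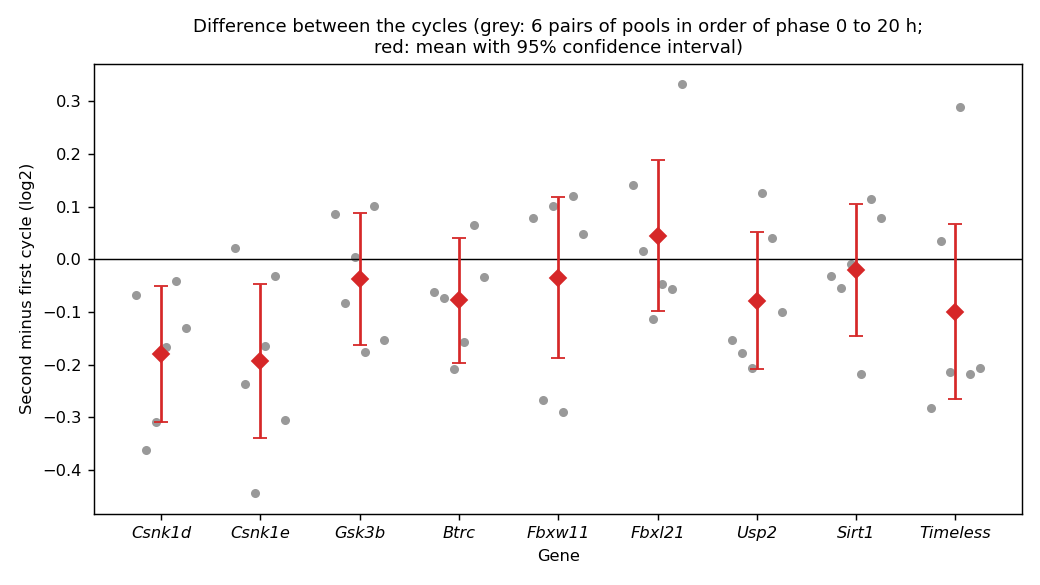
Second minus first cycle in log2 units (y axis) for each of the 9 genes (x axis), with the 6 pairs of pools as grey points and the fitted mean and its 95% interval in red. The intervals of Csnk1d and Csnk1e end at -0.05, those of the other 7 genes include 0, and no gene passed after adjustment.

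The other members differed less or less evenly. Timeless differed by -0.10 ± 0.08 (SE), lower in 4 of 6 pairs, but by -0.18 without the pair CT12 and CT36, in which the second pool was 0.29 higher. The mean of 6 proliferation genes, among them Mki67 and Top2a, differed by -0.04 ± 0.06 (SD, 6 pairs), and its part in the Timeless values was not tested. Usp2 differed by -0.08 ± 0.06 and Btrc by -0.08 ± 0.05. Gsk3b, Fbxw11 and Sirt1 lay between -0.04 and -0.02, and Fbxl21 at 0.04 ± 0.07. The adjusted p of these 7 lay between 0.561 and 0.909 in limma. A change of the 24 h course between cycles was tested for all members, and 0 passed (limma, adjusted p = 0.9999 for each), with 0 of 9 and 143 of 19937 genes at an unadjusted p under 0.05.

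Neuronal marker lists also read lower in the second cycle. The mean of 9 mature sensory neuron markers lay between 12.26 and 12.44 in the first cycle and between 12.13 and 12.31 in the second. It differed by -0.10 ± 0.07 (SD, 6 pairs), with 8 of 9 genes lower, beside 61.7% of all genes. The mean of 8 immature neuron markers lay between 9.80 and 9.93 and then between 9.60 and 9.81, with 8 of 8 genes lower and a mean difference of -0.17 ± 0.07 (SD, 6 pairs). The defining genes Omp and Gap43 differed by -0.20 and -0.22 (limma, adjusted p = 0.304 for both). Differences within the mature list ran from -0.22 for Adcy3 to 0.15 for Gng13. Within the immature list they ran from -0.33 for Tubb3 to -0.04 for Dcx. The 5 sustentacular markers differed by a mean of -0.02 ± 0.01 (SD, 6 pairs). Single genes of that list ran from -0.21 for Muc2 to 0.08 for Sult1c1, with 3 of 5 lower. The part of these markers in the casein kinase values was not tested.

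The wider set listed around these members, not all of them enzymes, held 54 genes, of which 49 were measured. In the 24 h fit 0 of 49 passed in limma, against 0.0251% of all genes. At an unadjusted p under 0.05 there were 0 of 49, against 3.54%. These were 14 kinases, 6 phosphatases, 11 ubiquitin ligase parts, 3 deubiquitinases, 5 partners of Timeless and 10 genes of NAD metabolism and acetylation. Between the cycles 0 of 49 passed, as did 0% of all genes. At an unadjusted p under 0.05, 11 were lower, against 8.94% of all genes, and 1 was higher, against 4.22%. In all 33 of 49 read lower, beside 61.7% of all genes. Among kinases, the gamma 2 casein kinase gene Csnk1g2 differed by -0.14 ± 0.05 (SE) and Gsk3a, the paralogue of Gsk3b, by -0.14 ± 0.06. The neuronal kinase gene Mapk10 differed by -0.18 ± 0.06. Phosphatases included Ppp5c at -0.16 ± 0.07 and Ppp1ca at -0.13 ± 0.05. Of the ligase parts, Stub1 differed by -0.15 ± 0.06 and Ddb1, an adaptor of CUL4 ligases, by -0.13 ± 0.05. The sirtuin genes Sirt7, Sirt2 and Sirt3 differed by -0.18 ± 0.06, -0.15 ± 0.06 and -0.15 ± 0.06, whereas Sirt1 differed by -0.02 ± 0.06. Usp14, a deubiquitinase of the proteasome, was the 1 gene higher at an unadjusted p under 0.05 in limma, by 0.20 ± 0.08. Adjusted p for these named genes lay between 0.304 and 0.350 in limma.

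Sirt1, Fbxw11 and Gsk3b followed each other from pool to pool. Their pairwise Pearson correlations were 0.92 for Fbxw11 and Sirt1, 0.80 for Fbxw11 and Gsk3b and 0.75 for Gsk3b and Sirt1, the highest 3 of 36 pairs, whose median was 0.29. Sirt1 and Fbxw11 were both lowest at CT36 and CT52, and both were among their highest at CT24, CT48 and CT56. Timeless ran the other way, at -0.65 with Sirt1 and -0.63 with Fbxw11. All 36 values come from the same 12 arrays.

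**Figure D4:**
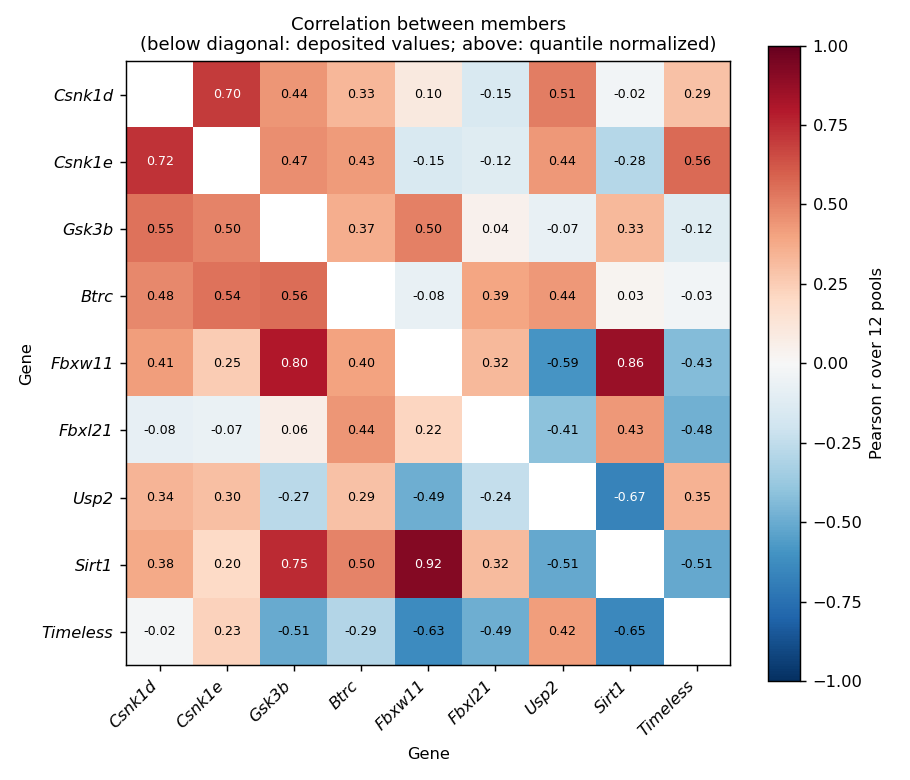
Pearson correlation over the 12 pools between each pair of the 9 genes (both axes), with deposited values below the diagonal and quantile normalized values above it, blue for negative and red for positive. The pair Fbxw11 and Sirt1 stays at 0.86 after normalization, whereas Gsk3b with Sirt1 reads 0.75 before and 0.33 after it.

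Levels of the same genes moved with the width of the array's own distribution. A wider distribution tends to hold higher values above the median and lower values below it, so some correlation can be expected of any gene. The permutation p given here do not allow for this. That width is taken from all probes, and the share of all genes that follow it was not computed. Among the 10 clock genes, Pearson r with it ran from -0.24 for Per1 to 0.84 for Clock, with Cry1 at 0.75. The interquartile range of all probes lay between 2.25 at CT36 and 2.53 at CT48. Sirt1 correlated with it at Pearson r = 0.93 and Spearman rho = 0.91 (permutation tests over 12 pools, two-sided, adjusted p = 0.00018 and 0.0009 over 9 genes). Fbxw11 did so at r = 0.89 and rho = 0.83 (permutation tests, adjusted p = 0.000585 and 0.00534), and Gsk3b at r = 0.80 and rho = 0.82 (permutation tests, adjusted p = 0.00552 and 0.00534). Without CT48 and CT36, the pools farthest from the median width, r was 0.88, 0.78 and 0.68. Timeless had r = -0.60 and rho = -0.74 (permutation tests, adjusted p = 0.0749 and 0.0173), with r = -0.39 without those 2 pools, which was not tested. Btrc had r = 0.62 and rho = 0.69 (permutation tests, adjusted p = 0.0686 and 0.0305), and r = 0.84 without them. For Usp2, r was -0.46 (permutation test, adjusted p = 0.195), 0.18 without those 2 pools, where its sign turned, and -0.61 after quantile normalization. For Csnk1d r was 0.42, for Csnk1e 0.44 and for Fbxl21 0.40, and without those pools 0.57, 0.43 and 0.34. The raw permutation p ranged from 2e-05 for Sirt1 to 0.195 for Fbxl21 among the Pearson values. Sirt1, Fbxw11, Gsk3b, Btrc, Csnk1d and Csnk1e, with positive r, lay above at least 66.0% of the probes on every array. Timeless, with negative r, lay above 40.6% to 48.5%. Usp2 and Fbxl21 went the other way. Usp2, with negative r, lay above 62.6% to 77.7%, and Fbxl21, with positive r, above 18.4% to 24.2%.

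**Figure D5:**
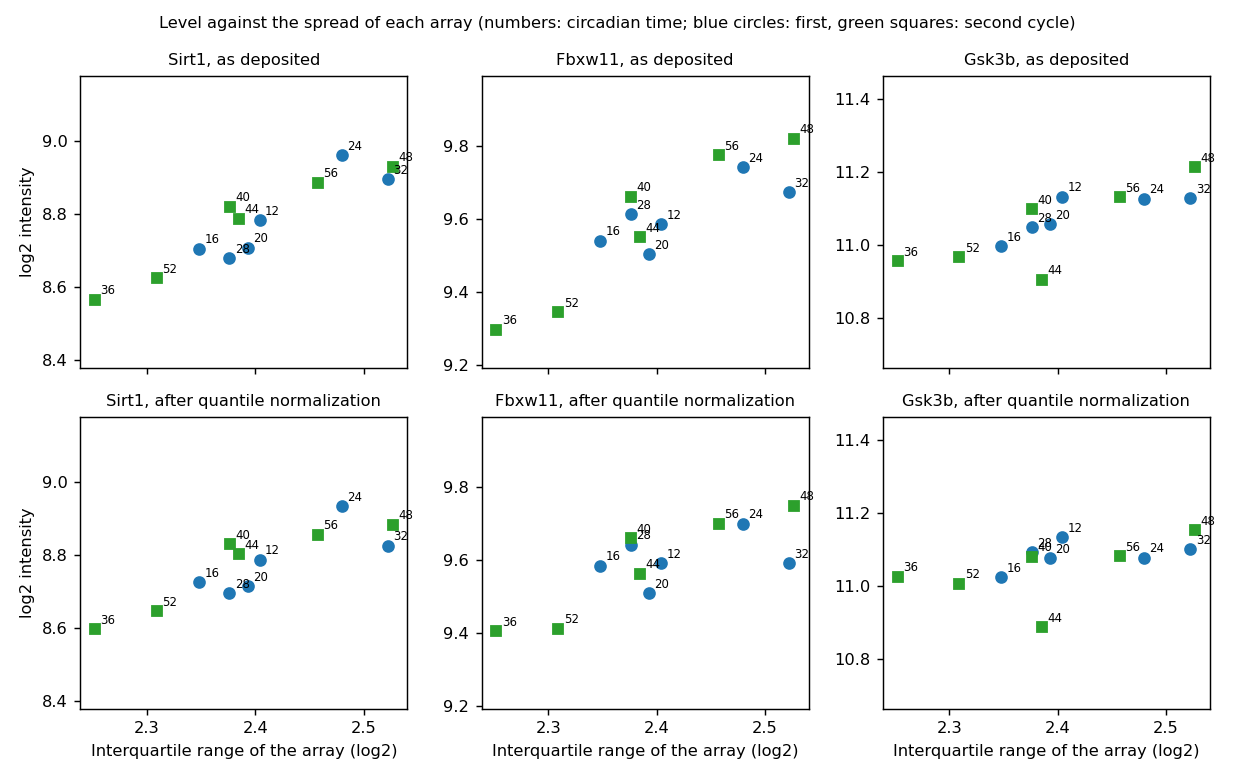
log2 intensity of Sirt1, Fbxw11 and Gsk3b (y axis, the same height in every panel) against the interquartile range of each array in log2 units (x axis), as deposited in the upper row and after quantile normalization in the lower row, with 1 point per pool labelled by circadian time. CT36 and CT52 lie at the lower left for Sirt1 and Fbxw11 in both rows, and the range of levels shrinks in the lower row.

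Quantile normalization, which gives every array the same distribution, lowered the SD over the pools of Fbxw11 from 0.16 to 0.11, of Gsk3b from 0.09 to 0.07 and of Sirt1 from 0.13 to 0.10. The correlation with the original width was then 0.86 for Sirt1, 0.78 for Fbxw11 and 0.52 for Gsk3b. Usp2 kept an SD of 0.18 before and 0.19 after. Clock, the gene of the activator that pairs with BMAL1, had a correlation of 0.84 with the width of the array and of 0.91 with Sirt1, the highest of 90 pairs of a member and a clock gene. The next highest was Csnk1e with Cry2, at 0.87. Whether array width or the make-up of the tissue accounts for shared courses was not tested.

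The genes with the most similar course were also named for the remaining members. They were Fbxo21, Zkscan1 and Dcaf7 for Csnk1d (r from 0.93 to 0.94), Nelfb, Kpna6 and Glrx5 for Csnk1e (0.96 to 0.98), and Pafah1b2, Pik3c3 and Selenos for Gsk3b (0.92 to 0.94). For Sirt1 they were Plekha1, Parg and Efhb (0.96 to 0.97), for Fbxw11 Tlcd4, Eno4 and Hnrnph2 (0.95 for each), for Timeless Slco2b1, Sh3bp2 and Cxcr3 (0.94 to 0.97) and for Fbxl21 Fam151b, Klf10 and Zfp939 (0.81 to 0.85). The dim Fbxl21 thus had the lowest best match of the 9. These values were the highest among 17158 genes over 12 pools and describe these arrays only.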

How the data were processed

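RNA of the 12 pools was measured on Affymetrix arrays. Per the labels' protocols, Trizol-extracted total RNA went through the Ambion WT Expression kit, which primes at random positions, and was labelled with biotin. The deposited values are 1 log2 intensity per probe and pool. The base of the logarithm was read from the range of the values, 3.48 to 14.5. The submitters' processing notes name the tool affy. How the arrays were background-corrected or normalized is not given in the sources consulted, and the column medians lie between 7.81 and 7.92. Values were used as deposited.

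Of 34760 probes, 21640 have 1 symbol in the platform annotation, 1321 have several and 11799 are not listed and are unnamed here. A lookup by Entrez ID in RefSeq (GRCm38.p6) matched 21553 and changed 0 symbols. The probe with the highest mean stood for each of 19937 genes. Fits used limma 3.58.1 in R 4.3.3: a 24 h cosine and sine (F test, 9 residual degrees of freedom), the second against the first cycle with phase as a factor, and the interaction of both, with Benjamini-Hochberg adjustment over all genes and a threshold of 0.05. Permutation tests of correlations used 100000 permutations. The fits were tried on simulated data with added effects larger than those fitted for any member. Those simulations therefore cannot show whether effects as small as those of the members would be found.

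Members and gene lists were chosen with earlier results of these data known. Named genes were all members, 10 clock genes, up to 3 genes per list and test at an unadjusted p under 0.05, and the 3 genes most like each member, leaving out odorant and vomeronasal receptors, predicted genes and small RNAs. Some genes of the wider lists were not analysed here. Skp1 and Dnaic1 were found under newer or older names. Other settings tried were median centring, quantile normalization, array weights, a trended robust prior, averaging a gene's probes, dropping the dimmest 25% of genes, periods of 22 and 26 h, a linear trend, cycle as a block, other forms of the cycle fit and leaving out each pool.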

Additional observations from a re-analysis of the deposited data

How the results depend on the processing

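Under the other settings, 1 of them added after seeing the data (without CT32 and CT56), the count of members past the threshold was 0 for the 24 h fit and for the cycle difference. For the change of rhythm between cycles, run only with quantile normalization, median centring, dim genes left out and array weights, it was also 0. Usp2 had an unadjusted p under 0.05 for the 24 h fit in 23 of 23 alternatives, with an amplitude from 0.16 to 0.22 and an adjusted p from 0.459 to 0.99999 in limma. Btrc had one in 12 of 23, and in 4 of the 12 that left out a pool. Csnk1d and Csnk1e had one for the cycle difference in 21 of 21 other settings, with adjusted p from 0.143 to 0.682 and from 0.130 to 0.695 in limma. Leaving out either pool of a pair gives the same cycle fit, so these 21 settings are not all distinct. Timeless had one in 3 of 21, with array weights, which called 17 genes in place of 0, and without CT12 or CT36. Leaving out CT12 and leaving out CT36 are the same fit, which called 18 genes.

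Small values turned. With array weights the cycle difference was 0.0029 for Fbxw11 and 0.0203 for Sirt1. Leaving out 1 pool, it ranged from -0.0661 to 0.0157 for Fbxw11, from -0.0471 to 0.0195 for Sirt1 and from -0.0125 to 0.0767 for Fbxl21. The 24 h amplitude then ranged from 0.0163 to 0.0941 for Csnk1e, whose peak was at CT 0.605 without CT32, and from 0.0120 to 0.0646 for Timeless, whose peak was at CT 16.9 without CT44 and at CT 1.3 without CT48. The cause was not tested. In the cycle fit with phase as a factor, leaving out a pool also takes its partner out of the difference. The 24 h fit called 5 genes as reported, 0 with a period of 22 h, 2 with 26 h and 7 with array weights. Each member rests on 12 arrays, which limits the precision, and on 1 entry of the probe annotation, and Fbxl21 was dim.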
